A study of Mus musculus with 14 samples.

Results

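The fibrillar collagen chains are the 6 genes Col1a1, Col1a2, Col3a1, Col5a1, Col5a2 and Col11a1, whose products build the banded fibrils of the corneal stroma. Every probe set that the platform annotation gives 1 of these symbols was taken, which was 11 of the 12422 probe sets on the array once controls were removed. Col3a1 had 3 probe sets, Col1a1, Col1a2 and Col5a1 had 2 each, and Col5a2 and Col11a1 had 1 each.

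Fibrillar collagens are made as long procollagen chains that wind into a triple helix inside the cell and assemble into fibrils outside it. Type I collagen, a trimer of Col1a1 and Col1a2 chains, is the bulk of the corneal fibril, and type V collagen, built from Col5a1 and Col5a2, is copolymerised inside it, starts fibril assembly and keeps fibrils thin. Type III collagen is a homotrimer of Col3a1 that is known from young, pliable and healing connective tissue. Col11a1 belongs to type XI collagen of cartilage, a close relative of type V with which it can share chains.

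RNA was measured on Affymetrix MG_U74Av2 arrays in 14 samples of CD-1 mice, 1 array each. The 9 cultures were primary stromal cells of mice aged 7 to 8 weeks. Of these, 3 were myofibroblast cultures, given both 10% fetal bovine serum and TGF-beta1 at 10 ng/ml, 3 were fibroblast cultures, given the same serum alone, and 3 were keratocyte cultures, kept in 1% platelet-poor horse serum. The 5 tissue samples were stroma dissected from adults of 7 to 8 weeks (3 arrays) and at postnatal day 10 (P10, 2 arrays). All cultures thus grew in DMEM with serum of some kind, and the labels do not say whether arrays of a group came from separate animals or cultures, or whether animals were pooled. P-values therefore measure the spread between these arrays, which may be technical.

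A value is a signal of Microarray Suite 5.0 on a linear scale, and levels of different probe sets are not set against each other, since each has its own brightness. Control probe sets for transcripts taken here as absent gave a 95th percentile of 137.7, and a signal under it is called here within background. That these transcripts were absent was assumed and not tested. The 14 arrays had median signals of 102.0 to 135.7. Differences are given as log2(signal + 16) with the standard error (SE) of a limma fit over all 14 arrays, and a call means an adjusted p below 0.05 after Benjamini-Hochberg adjustment over the 10370 probe sets whose mean signal reached 50 in at least 1 group. All 11 collagen probe sets passed that filter, 3 of them (Col3a1 161984_f_at, Col3a1 102990_at and Col11a1) with an adult mean below 50, so these passed only through the other groups.

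The labels were set against defining markers. Keratocyte culture replicates 1 to 3 gave 3066, 3167 and 3347 for Acta2, the smooth muscle actin of myofibroblasts, against 39.6, 65.0 and 63.4 in adult stroma. The myofibroblast cultures lay at 3061, 2954 and 2932, so Acta2 did not set the keratocyte cultures apart from them. Fibroblast cultures gave 2544, 2955 and 638.4 for Acta2. Of 7 myofibroblast markers, limma called 0 between myofibroblast and fibroblast cultures (0 at an unadjusted p under 0.05), where 1.07% of all probe sets were called. In that fit, which did not pair arrays by replicate number, these markers did not set the myofibroblast cultures apart from the fibroblast cultures. A paired fit of the markers is not given. Kera, the keratocan of keratocytes, gave 315.1, 15.7 and 164.0 in the keratocyte cultures, against 429.1, 265.4 and 214.0 in adult stroma. Of the 8 keratocyte markers tested, 4 were called higher and 1 lower in keratocyte cultures than in adult stroma. Of all probe sets 21.8% were higher and 9.25% lower. Of the 15 corneal epithelium markers tested, all 15 were lower in keratocyte cultures than in adult stroma, with sums of 944.5 to 1037 against 25553 to 30262, so both dissected stroma groups carried epithelial RNA. In such bulk samples fewer cells of a type and less RNA per cell cannot be told apart. Fibroblast culture replicate 3 stood apart from its group in Col3a1, a member, and is given separately where it matters. Replicate 2 deviated as well. Of all kept probe sets, 1.23% lay more than 1 log2 unit below both other fibroblast arrays on replicate 3, and 0.829% above. On replicate 2 these shares were 2.35% below and 0.27% above.

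The promoters of the chains that RefSeq's table lists (4 of 6, build GRCm38.p6) are shown here, and none is listed for Col1a1 and Col5a2. Whether their letters bear on how the chains moved across the arrays was not tested. Each line gives the 150 bases right before the gene's first annotated base, 5′ to 3′ on the plus strand. Capitals mark 4 sets of letters searched on both strands: CCAAT, which reads ATTGG on the other strand, GGGCGG, which reads CCGCCC there, TATAAA, which reads TTTATA there, and CAGAC, which reads GTCTG there. They are the core letters of the CCAAT, GC and TATA boxes and of Smad binding. No 2 matches overlap.
Col1a2, chr6:4505468-4505617: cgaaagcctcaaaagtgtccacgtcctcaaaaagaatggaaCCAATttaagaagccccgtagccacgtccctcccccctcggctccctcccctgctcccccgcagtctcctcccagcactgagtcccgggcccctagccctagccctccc
Col3a1, chr1:45311388-45311537: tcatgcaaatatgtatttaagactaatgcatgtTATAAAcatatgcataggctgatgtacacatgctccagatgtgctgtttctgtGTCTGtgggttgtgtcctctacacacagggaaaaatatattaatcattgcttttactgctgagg
Col5a1, chr2:27886231-27886380: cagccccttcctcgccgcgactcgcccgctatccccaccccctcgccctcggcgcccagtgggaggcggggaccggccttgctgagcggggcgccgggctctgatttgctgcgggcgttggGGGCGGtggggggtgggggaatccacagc
Col11a1, chr3:114030329-114030478: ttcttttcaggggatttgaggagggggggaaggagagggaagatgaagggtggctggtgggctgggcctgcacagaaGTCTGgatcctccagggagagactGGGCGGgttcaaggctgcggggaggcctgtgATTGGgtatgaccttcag

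The Col1a2 stretch held 1 CCAAT, 109 to 105 bases upstream, and none of the other letters. Col5a1 and Col11a1 each held a GGGCGG, 29 to 24 and 49 to 44 bases upstream, and Col11a1 also had an ATTGG at 18 to 14 bases. Col3a1 was the only 1 of the 4 with TATAAA, 117 to 112 bases upstream. A GTCTG lay 64 to 60 bases upstream of Col3a1 and 73 to 69 bases upstream of Col11a1. Among 23797 stretches of the same length and placing, 25.7% held CCAAT, 25.7% GGGCGG, 8.52% TATAAA and 28% CAGAC on either strand. G and C made up 76% of the Col5a1 stretch, 62.7% of Col1a2, 60% of Col11a1 and 37.3% of Col3a1, beside a median of 52.7% over all stretches. These are descriptions of letters, not of binding.

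Adult stroma had the lowest mean of the 5 groups for 9 of the 11 probe sets. Col1a1 103709_at was lowest in keratocyte cultures and Col1a2 161156_r_at in myofibroblast cultures. In adult against P10 stroma, those 9 probe sets were lower and 0 higher, while 3.26% of all 10370 probe sets were called lower and 0.453% higher. In keratocyte culture against adult stroma the same 9 probe sets were higher, where 21.8% of all were called higher and 9.25% lower. Both comparisons rest on the same 3 adult arrays, so they are not independent of each other. The probe sets that were not called in either were Col1a1 103709_at and Col1a2 161156_r_at. The median log2 difference of the 11 was -2.19 in adult against P10 stroma (all probe sets -0.12) and 2.49 in keratocyte culture against adult stroma (all 0.12). Among the 9 were 3 probe sets, of Col3a1 and Col11a1, with an adult mean below 50. These could pass the filter only with a higher mean in another group, so their calls against adult stroma are not independent of the filter. The counts and medians also take Col3a1 3 times, so they do not count separate chains.

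Between cultures few members were called. In fibroblast against keratocyte culture, 2 probe sets, both of Col3a1, were lower (1.18% of all were lower and 0.193% higher), and the median of the 11 was 0.00 (all -0.09). In myofibroblast against fibroblast culture, 1 probe set, Col11a1, was higher (0.289% of all were higher), and the median was 0.52 (all -0.05). With the replicate number as a block, 4 probe sets were higher in this comparison, Col11a1 and the 3 of Col3a1, where 0.752% of all were called higher. Myofibroblast and fibroblast cultures of the same number deviated together from their group means (correlations of 0.533 to 0.682). Among the comparisons with 3 same-numbered pairs, this was the only 1 in which every pair correlated above 0.1. Fibroblast and keratocyte cultures gave 0.069 to 0.572, and myofibroblast and keratocyte cultures 0.074 to 0.409.

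**Figure D1:**
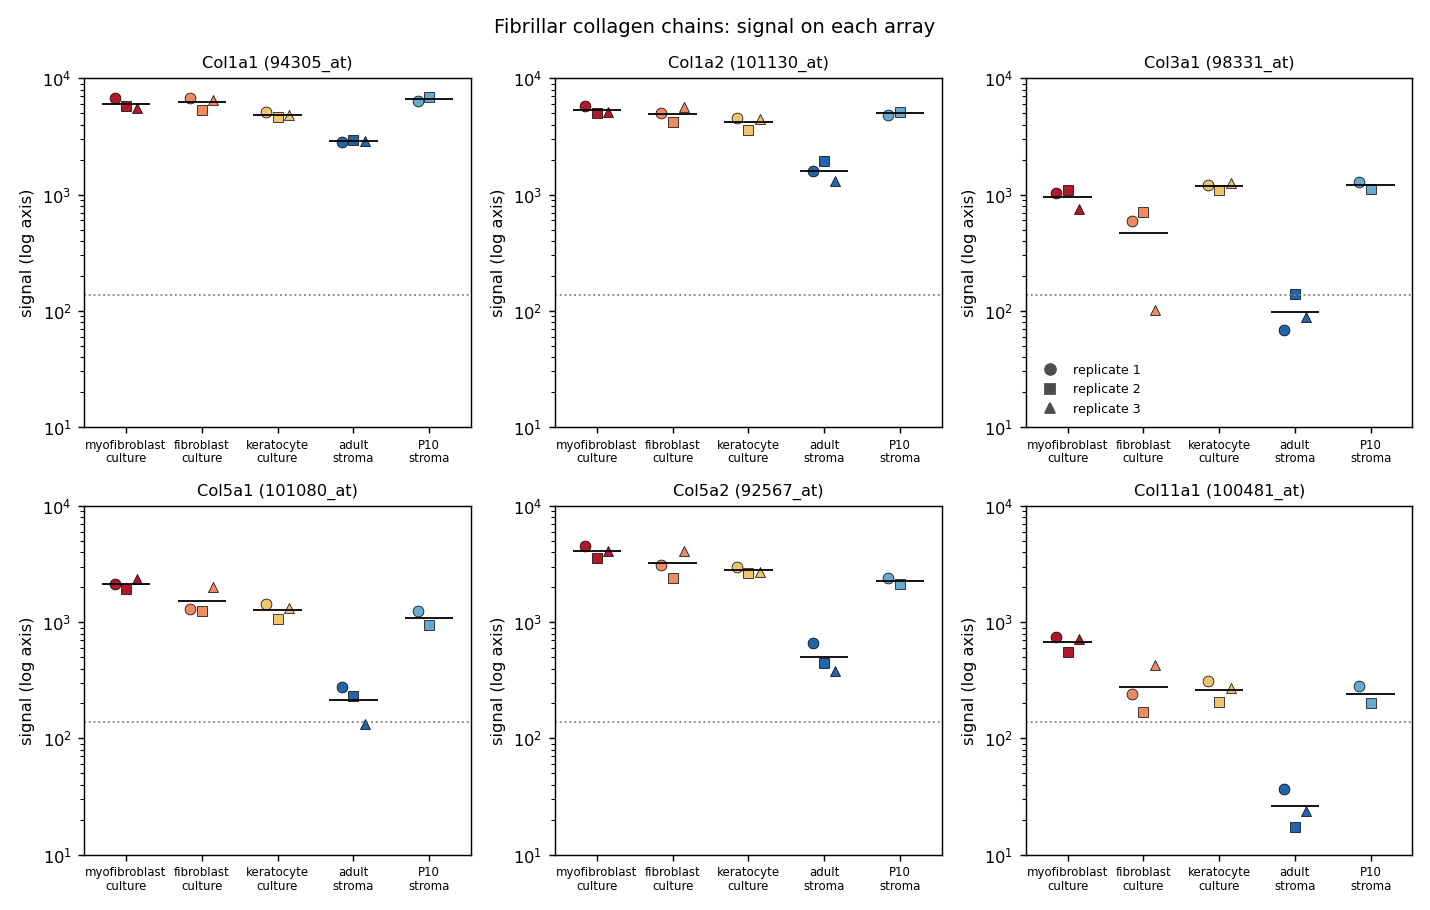
Signal (log axis) of each chain's brightest probe set on each array by group, with replicates as symbols, the group mean as a bar and the 95th percentile of the control probe sets for transcripts taken as absent as a dotted line at 137.7. Adult stroma is the lowest group in every panel, and fibroblast replicate 3 lies at 102 for Col3a1 while it is the highest fibroblast array for Col5a1, Col5a2 and Col11a1.

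Col1a1, the chain that supplies most of the type I trimer, was read by 94305_at. Adult stroma gave 2815, 2926 and 2904, against 6354 and 6926 in P10 stroma. The adult arrays lay close together and under both P10 arrays. Col1a1 fell by 1.20 (SE 0.13) on the log2 scale, to 0.436 times the P10 level (limma, adjusted p = 0.000195). Keratocyte cultures gave 5122, 4671 and 4818, all above the adult arrays, with a log2 difference of 0.75 (SE 0.11, adjusted p = 0.000141, limma).

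Col1a1 was not called in either step between cultures. Fibroblast cultures gave 6745, 5392 and 6538, which did not overlap the keratocyte cultures but missed the threshold (log2 difference 0.35, SE 0.11, limma adjusted p = 0.228). Myofibroblast cultures gave 6834, 5766 and 5562, within the range of the fibroblast cultures or just above it, and the log2 difference between them was -0.04 (95% interval -0.28 to 0.20). In the order of means adult stroma (2882 ± 58.8, SD, n = 3) came below keratocyte (4870.2 ± 230), myofibroblast (6054 ± 683) and fibroblast cultures (6225 ± 729) and P10 stroma (6640.1 ± 404, n = 2). Only the step from adult stroma to keratocyte culture differed between neighbours in that order.

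Col1a1 sat near the top of the scale. Its signal was 37.6% to 97% of the brightest probe set on its array, and as few as 1 other probe set was brighter, the most being 80 in adult stroma. Whether the signal still follows the RNA in proportion there was not tested. Col1a2 reached 82.1% of the highest signal and Col5a2 62.2%.

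Col1a2, the partner chain of type I, was read by 101130_at. Adult stroma gave 1592, 1933 and 1304, against 4884 and 5107 in P10 stroma. The 2 groups did not overlap, and Col1a2 fell by 1.64 (SE 0.17) on the log2 scale, to 0.320 times the P10 level (limma, adjusted p = 0.000202). Keratocyte cultures gave 4547, 3589.6 and 4487 and were higher than adult stroma by 1.39 (SE 0.16, limma adjusted p = 9.91e-06). Fibroblast cultures gave 5018, 4175 and 5685 and myofibroblast cultures 5786, 5075 and 5164. These overlapped, and neither step between cultures was called. Above adult stroma no neighbours in the order of the group means differed.

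Col3a1, the chain of type III collagen, varied widely between groups and within the fibroblast group, with an SD of its log2 values over the 14 arrays of 1.52, beside 0.47 to 1.46 for the other chains. With 98331_at, adult stroma gave 67.7, 139.2 and 87.7, against 1284 and 1127 in P10 stroma. The adult mean lay within background, and replicate 2 was just above it. Col3a1 was thus at least 8.75-fold lower in adult stroma, a bound taken against 137.7, and the fitted log2 difference was -3.46 (SE 0.55, limma adjusted p = 0.00247). Keratocyte cultures gave 1219.6, 1085 and 1249, all far above the adult arrays and around the P10 arrays. They were at least 8.60-fold higher than adult stroma (log2 difference 3.44, SE 0.49, limma adjusted p = 9.56e-05).

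Fibroblast cultures gave 589.6, 704.1 and 101.7 for Col3a1, all below the keratocyte cultures. The log2 difference of -1.69 (SE 0.49) missed the threshold for this probe set (limma, adjusted p = 0.150), and without fibroblast replicate 3 it was -0.86 (adjusted p = 0.183). The other probe sets of Col3a1 were called. With 161984_f_at fibroblast cultures gave 90.3, 77.1 and 6.83, against 217.7, 197.2 and 180.8 in keratocyte cultures (log2 difference -1.81, SE 0.41, limma adjusted p = 0.0477). With 102990_at they gave 72.9, 70.8 and 14.4, against 207.1, 175.5 and 212.3 (log2 difference -1.79, SE 0.33, limma adjusted p = 0.0169). Every fibroblast value of these probe sets was within background, so each was at least 1.44-fold lower in fibroblast cultures, and the fitted sizes depend on the added constant. Without fibroblast replicate 3 both were still called (limma, adjusted p = 0.0198 and 0.0181). Without keratocyte replicate 1 or 3 neither was called, and without keratocyte replicate 2 only 1 was.

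Myofibroblast cultures gave 1035, 1085 and 755.7 for Col3a1 98331_at, all above the fibroblast cultures. The log2 difference was 1.37 (SE 0.49, limma adjusted p = 0.360), and 1.80 and 1.47 for the other probe sets (adjusted p = 0.0554 and 0.0503), for which only bounds of 1.43-fold and 1.16-fold stand above background. With the replicate number as a block these 3 adjusted p-values were 0.0483, 0.00717 and 0.0247 (limma). Fibroblast replicate 3 carried much of the size: without it the log2 differences were 0.54, 1.09 and 0.96, of which the middle value, that of 161984_f_at, was called (adjusted p = 0.0135). Col3a1 in myofibroblast cultures did not differ beyond the spread from keratocyte cultures (log2 difference -0.32, 95% interval -1.37 to 0.74) or from P10 stroma (-0.34, -1.52 to 0.84), intervals wide enough to hold a change of more than 1 on the log2 scale.

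Fibroblast replicate 3 differed from the other fibroblast arrays in a set of genes and not in overall brightness. Its 3 Col3a1 signals were 2.49, 2.12 and 1.53 lower on the log2 scale than the mean of the other fibroblast arrays, and 0.145% of all probe sets differed downward by as much as 98331_at. On the same array Col11a1 was 1.04 higher than on the others, Col5a1 (101080_at) 0.65 higher and Col5a2 0.60 higher, while Col1a1 (94305_at) was 0.12 higher. Its Tagln, a smooth muscle gene of myofibroblasts, was 428.2, against 2157 and 2822 on the others, and its Acta2 was 638.4, against 2544 and 2955 on the others. Its Aldh3a1, the corneal crystallin of keratocytes, was 3721, against 751.3 and 222.3 on the others. Other members of these marker lists did not all move the same way. Of the keratocyte markers Kera, Lum, Dcn and Ogn were also higher than on the others, and Tkt lay between them. Ptgds (180.8, against 349.7 and 407.4) and Cd34 (42.8, against 68.1 and 70.3) were lower. Of the myofibroblast markers only Cnn1 was higher (985.3, against 771.9 and 781.8). The part of this array's other differences in the collagen results was not tested.

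Col5a1, the chain that gives type V collagen its fibril-starting role, was read by 101080_at and 93472_at. With 101080_at, adult stroma gave 277.5, 232.4 and 132.5, against 1241 and 949.0 in P10 stroma. Col5a1 fell by 2.32 (SE 0.28) on the log2 scale, to 0.201 times the P10 level (limma, adjusted p = 0.000367). With 93472_at adult stroma gave 393.4, 190.2 and 284.3, against 886.0 and 683.5 in P10 stroma, a fall of 1.44 (SE 0.27, limma adjusted p = 0.00787). The groups did not overlap with either probe set. Without P10 replicate 1 the 93472_at difference was no longer called (-1.25, adjusted p = 0.141), nor was that of Col3a1 161984_f_at (-2.63, adjusted p = 0.0571).

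Keratocyte cultures gave 1438, 1072 and 1328 for Col5a1 101080_at, higher than adult stroma by 2.54 (SE 0.25, limma adjusted p = 2.34e-06). Fibroblast cultures gave 1299.8, 1253 and 2013 and myofibroblast cultures 2151, 1935 and 2362. The highest fibroblast array, replicate 3, lay above the lowest myofibroblast array, so these groups overlapped, and the log2 difference was 0.52 (SE 0.25, limma adjusted p = 0.629, and 0.387 with the replicate number as a block). With 93472_at the myofibroblast cultures (1456, 1183 and 1661) lay above all fibroblast cultures (813.0, 637.2 and 946.8), with a log2 difference of 0.84 (SE 0.24) that also missed the threshold (limma, adjusted p = 0.174, and 0.0755 with the block). With both probe sets each of the 3 myofibroblast arrays lay above the fibroblast array of its number. Against P10 stroma both probe sets were higher in myofibroblast cultures (0.97 and 0.85, limma adjusted p = 0.0219 and 0.0367).

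Col5a2, the other chain of type V, was read by 92567_at alone. Adult stroma gave 669.3, 448.5 and 380.4, against 2424 and 2138 in P10 stroma. It fell by 2.19 (SE 0.24) on the log2 scale, to 0.219 times the P10 level (limma, adjusted p = 0.000204). Keratocyte cultures gave 3011, 2658 and 2729, higher than adult stroma by 2.49 (SE 0.21, limma adjusted p = 6.01e-07). Fibroblast cultures gave 3108, 2396 and 4131 and myofibroblast cultures 4567, 3576 and 4109, with 1 fibroblast array (replicate 3) inside the myofibroblast range. The log2 difference between them was 0.37 (SE 0.21, limma adjusted p = 0.756).

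Col11a1, the type XI chain, was the only member called higher in myofibroblast cultures against each of the other 4 groups. Myofibroblast cultures gave 740.7, 551.3 and 720.4, against 239.6, 168.0 and 429.5 in fibroblast cultures. The groups did not overlap, each myofibroblast array was above the fibroblast array of its number, and Col11a1 rose by 1.31 (SE 0.29) on the log2 scale, 2.47-fold (limma, adjusted p = 0.0465). With the replicate number as a block the adjusted p was 0.00921. Without fibroblast replicate 3 the log2 difference was 1.65 (adjusted p = 0.00658), and leaving out any other 1 of the 6 arrays ended the call (adjusted p = 0.0686 to 0.186).

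Keratocyte cultures gave 310.1, 207.1 and 269.2 for Col11a1, and myofibroblast cultures were higher than these by 1.31 (SE 0.29, limma adjusted p = 0.0140). That was the single member called in myofibroblast against keratocyte culture, where 1.1% of all probe sets were higher, and it was not called without keratocyte replicate 3 (adjusted p = 0.0531) or without myofibroblast replicate 3 (0.0566). Fibroblast and keratocyte cultures overlapped (log2 difference 0.00, 95% interval -0.61 to 0.62).

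In tissue, Col11a1 gave 37.1, 17.2 and 23.6 in adult stroma, all within background, against 283.7 and 202.3 in P10 stroma. It was at least 1.76-fold lower in adult stroma (fitted log2 difference -2.63, SE 0.32, limma adjusted p = 0.000412). Against adult stroma it was at least 1.90-fold higher in keratocyte cultures, 2.03-fold in fibroblast cultures and 4.87-fold in myofibroblast cultures. In the order of group means, adult stroma was lowest and differed from P10 stroma, the next group. From P10 stroma through keratocyte to fibroblast cultures no neighbours differed. Myofibroblast cultures were at the top and differed from fibroblast cultures.

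**Figure D2:**
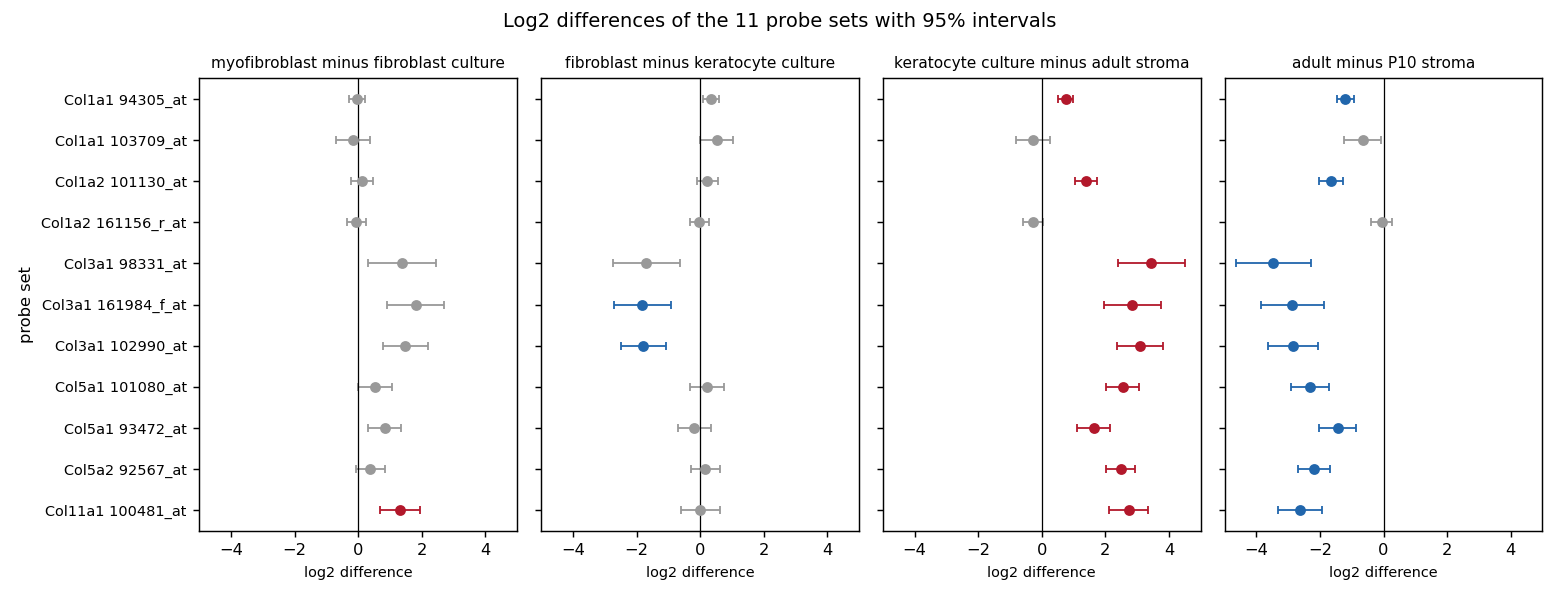
Log2 differences of log2(signal + 16) with 95% intervals from limma for the 11 probe sets in the 4 steps, coloured red where called higher, blue where called lower and grey where not called. The same 9 probe sets are called in both steps that involve adult stroma, the 2 of Col3a1 in fibroblast against keratocyte culture, and Col11a1 in myofibroblast against fibroblast culture.

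Against adult stroma, 8 of the 11 probe sets were higher in fibroblast cultures (18.4% of all were higher) and 9 in myofibroblast cultures (17.5% of all). Among the 8, Col3a1 102990_at was called with both means within background (52.7 and 9.19), so it has no bound. Both counts hold probe sets that passed the filter only through groups other than adult stroma. Col3a1 98331_at was called in fibroblast cultures although fibroblast replicate 3, at 101.7, lay inside the adult range (log2 difference 1.75, SE 0.49, limma adjusted p = 0.0144). Without that array the difference was 2.58. Against P10 stroma the cultures differed by chain. In myofibroblast cultures 4 probe sets were higher, those of Col5a1, Col5a2 and Col11a1 (7.84% of all were higher). In fibroblast cultures 3 were lower, all of Col3a1 (10% of all were lower), and in keratocyte cultures 2 were lower, both of Col1a1 (6.59% of all).

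These 3 counts rest on only 2 P10 arrays. Without P10 replicate 1 they were 1, 0 and 0, and without P10 replicate 2 they were 0, 1 and 0. Leaving out myofibroblast replicate 1 or 3 gave 2 and 1 for myofibroblast cultures. Leaving out any keratocyte array gave 0 or 1 for keratocyte cultures. The shares of all probe sets called with these arrays left out are not given here, so no change particular to the collagens is read from these counts. For Col1a1 94305_at the keratocyte cultures lay 0.45 (SE 0.13) below P10 stroma on the log2 scale (limma, adjusted p = 0.0257).

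Ratios within an array compare chains with overall brightness cancelled. Each is the log2 ratio of 2 probe set signals plus 16, and only its change between arrays is read. The 9 culture arrays were set against the 5 tissue arrays with an exact two-sided permutation test of the mean, adjusted by Benjamini-Hochberg over the 6 ratios. The test treats arrays of the 3 culture groups as alike, and likewise adult and P10 stroma. Single pairs of groups are given as values, since an exact permutation test of 3 against 3 arrays cannot go below 0.10 and of 3 against 2 not below 0.2.

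The type V chains were higher relative to Col1a1 in culture than in tissue. Col1a1 lay near the top of the scale, so these ratios carry the same untested limit as its signal. Col5a1/Col1a1 averaged -1.82 ± 0.34 in cultures and -3.26 ± 0.74 in tissue (SD, n = 9 and n = 5), a difference of 1.45 (exact permutation adjusted p = 0.004). Col5a2/Col1a1 averaged -0.78 ± 0.24 and -2.13 ± 0.63, a difference of 1.35 (exact adjusted p = 0.004), and all 9 culture arrays lay above all 5 tissue arrays. Adult stroma lay at the low end: its Col5a2/Col1a1 values were -2.05, -2.66 and -2.88, against -1.38 and -1.69 in P10 stroma, and both P10 values were below each of the cultures (-1.17 to -0.44). For Col5a1/Col1a1, P10 replicate 1 (-2.34) lay inside the range of the cultures.

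For Col11a1/Col1a1 the result turned on signals within background. With signals as deposited it averaged -3.93 ± 0.68 in cultures and -5.56 ± 0.85 in tissue, a difference of 1.63 (exact permutation adjusted p = 0.00599, n = 9 and n = 5). All 3 adult Col11a1 signals were within background, and with signals under that level raised to it, a setting chosen after seeing the data, the difference was 0.49 (exact adjusted p = 0.246). With the same setting the differences of Col5a1/Col1a1 and Col5a2/Col1a1 were 1.44 and 1.35 (exact adjusted p = 0.004 each).

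The other chain of type I moved much less against Col1a1. Col1a2/Col1a1 averaged -0.24 ± 0.12 in cultures and -0.67 ± 0.31 in tissue (SD, n = 9 and n = 5), a difference of 0.43 (exact permutation adjusted p = 0.004). Adult stroma gave -0.82, -0.59 and -1.15, against -0.38 and -0.44 in P10 stroma. The P10 values lay within the range of the cultures, -0.43 to -0.10, or just below it. With 161156_r_at in place of 101130_at the sign turned (-0.83, exact adjusted p = 0.0225).

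The type V chains kept nearly 1 ratio to each other with their brighter probe sets. Col5a2/Col5a1 averaged 1.04 ± 0.16 in cultures (lowest 0.79, highest 1.30) and 1.13 ± 0.21 in tissue (0.90 to 1.42), a difference of -0.09 (exact permutation p = 0.358, n = 9 and n = 5). With 93472_at for Col5a1 the difference was 0.63 (exact adjusted p = 0.012), so this steadiness holds for 1 of the 2 Col5a1 probe sets.

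Col3a1/Col1a1 spread most. Keratocyte cultures gave -2.06, -2.09 and -1.93, myofibroblast cultures -2.70, -2.39 and -2.85, and fibroblast cultures -3.48, -2.91 and -5.80. Adult stroma gave -5.08, -4.24 and -4.82, against -2.29 and -2.60 in P10 stroma. Col3a1 was within background on fibroblast replicate 3 and on 2 of the 3 adult arrays, so their ratios have no order among themselves. Cultures exceeded tissue by 0.89 (exact permutation adjusted p = 0.261, n = 9 and n = 5), and by 1.25 without that array (exact adjusted p = 0.0522).

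**Figure D3:**
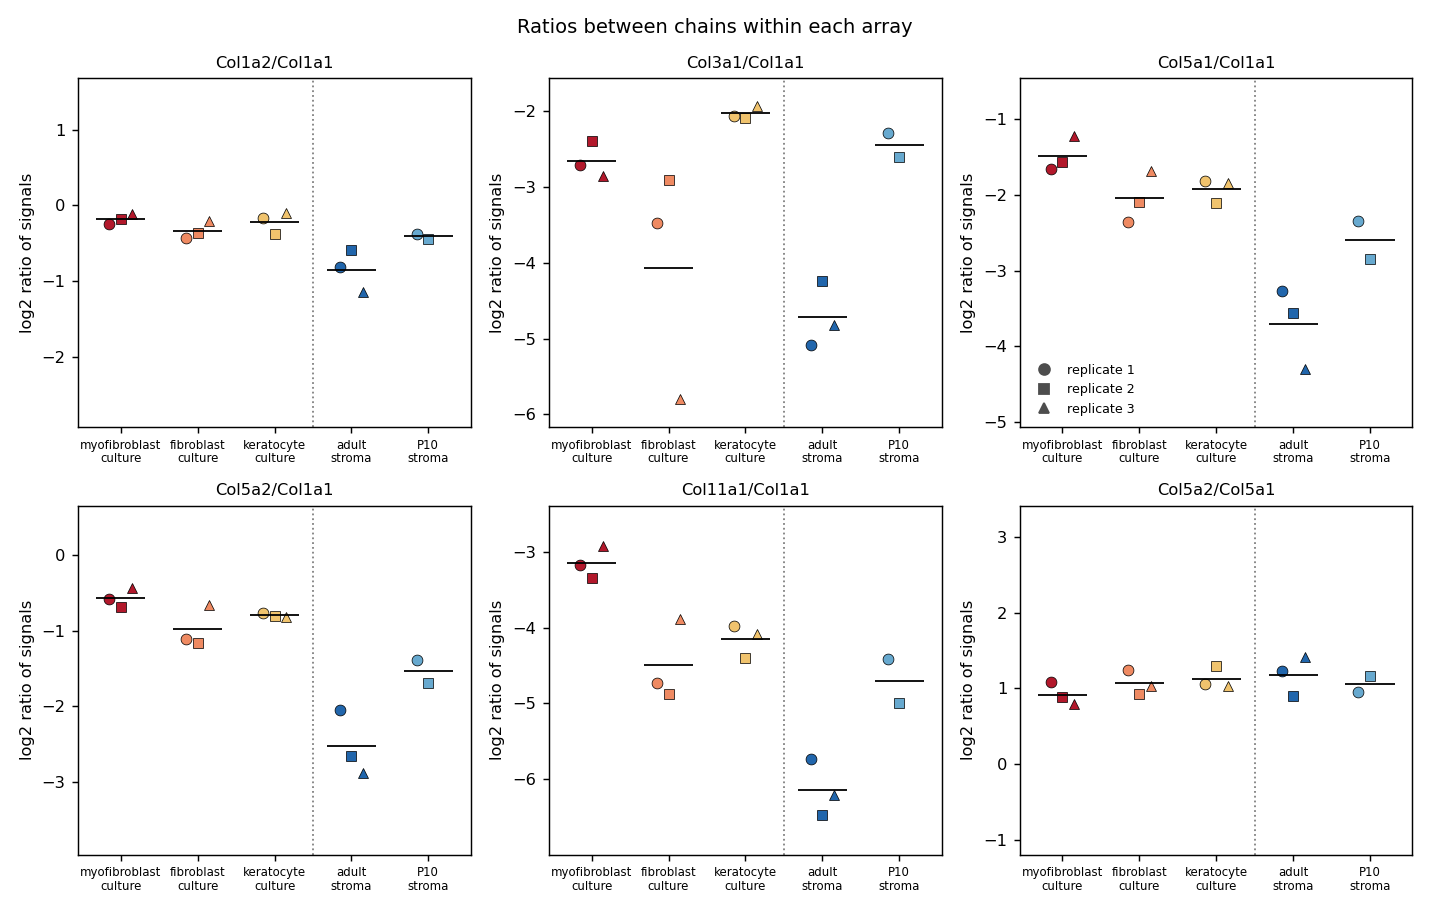
Log2 ratio of chain signals on each array by group, with replicates as symbols, group means as bars and a dotted line between cultures and tissue, each panel spanning the same number of log2 units. Ratios of Col5a1 and Col5a2 to Col1a1 are lowest in adult stroma, Col11a1 and most Col3a1 signals there are within background, Col5a2/Col5a1 lies between 0.79 and 1.42 on all 14 arrays, and fibroblast replicate 3 falls to -5.80 for Col3a1/Col1a1.

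Probe sets of the same chain did not always move together. For Col3a1 the 3 pairs had a Pearson correlation of 0.959 to 0.978 over the 14 arrays, and for Col5a1 the pair had 0.939. For Col1a1 it was 0.306 and for Col1a2 -0.612. These are descriptions over arrays that include the same group differences.

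Col1a1 103709_at gave 1805, 1166 and 805.7 in adult stroma, a wide spread, against 1879 and 1907 in P10 stroma. Its keratocyte cultures gave 946.7, 1091 and 901.3, its fibroblast cultures 1368, 1398 and 1450.3 and its myofibroblast cultures 1081, 1749 and 1049.8. It was not called in any of the 4 steps. It was called only in keratocyte culture against P10 stroma (log2 difference -0.94, SE 0.28, limma adjusted p = 0.0318).

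Col1a2 161156_r_at stayed between 176.6 and 276.5 on all 14 arrays. Adult stroma gave 224.9, 218.9 and 276.5, against 248.5 and 252.1 in P10 stroma, and the cultures lay between 176.6 and 208.5. These values are above the 95th percentile of the controls taken as absent but around the highest signal of those controls, 256.8. In Affymetrix names _r marks probe sets for which design rules were relaxed and _f those that can match a family of sequences. Which probe set reads its chain better was not tested.

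**Figure D4:**
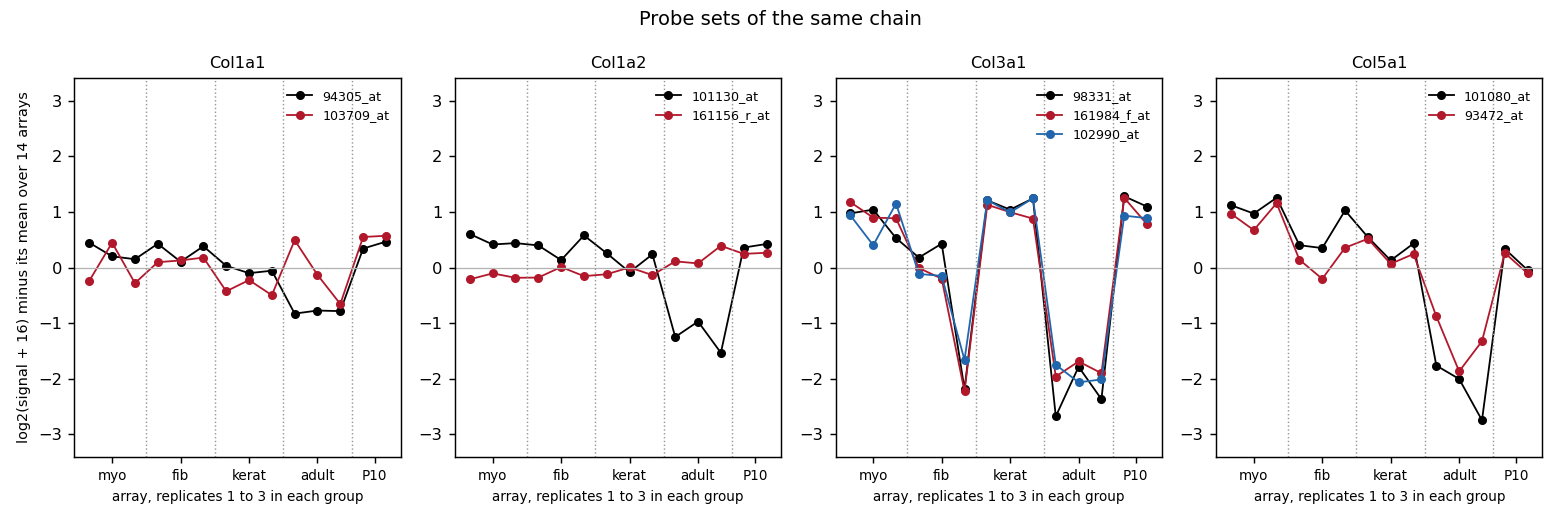
Values of log2(signal + 16) minus their mean over the 14 arrays (vertical axis) for each array in order of group and replicate (horizontal axis), 1 colour per probe set, with lines that only guide the eye. The 3 Col3a1 probe sets lie together throughout and drop on fibroblast replicate 3 and in adult stroma, while Col1a1 103709_at and Col1a2 161156_r_at do not drop in adult stroma with their partners.

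The likeness of other genes to each chain was measured as the root mean square (RMS) difference between centred log2 profiles over the 14 arrays, among 7436 genes. Nearest to Col5a1 was Col5a2 (0.17), followed by Ppic, a peptidyl-prolyl isomerase (0.27), and Serpinh1, the collagen chaperone Hsp47 (0.36). Nearest to Col5a2 were Col5a1 (0.17), Ppic (0.18) and Serpinh1 (0.34). For Col11a1 they were Dao, a D-amino acid oxidase (0.35), Col5a1 (0.37) and Col5a2 (0.41). The Dao means in adult stroma (4.45) and keratocyte cultures (128.3) were within background. Col5a1, Col5a2 and Col11a1 were thus near neighbours of each other.

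The type I chains and Col3a1 had other neighbours. Nearest to Col1a1 were Npepl1 (0.20), the imprinted gene Peg3 (0.21) and Tnnc2, a troponin of fast muscle (0.21), and Col1a2 came at rank 52 (0.28). Nearest to Col1a2 were Tm2d2 (0.21), Omt2b (0.26) and Herc2, a ubiquitin ligase (0.27), and Col1a1 came at rank 7 (0.28). Nearest to Col3a1, at a wider distance, were Col4a1 of basement membranes (0.73), the adhesion molecule Ncam1 (0.80) and Gsdme (0.81). The means of Gsdme were within background in every group, those of Herc2 in every group but myofibroblast cultures, and those of Npepl1 and Ncam1 in adult stroma. In the annotation Col3a1 and Col5a2 lie next to each other on chromosome 1 with 0 genes between them. Among the 7436 genes Col5a2 was at rank 39 for Col3a1, and Col3a1 at rank 2479 for Col5a2 (1.06).

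Genes that act on these chains after translation were counted from lists written for this purpose, and the shares of all probe sets above are their background. All counts of list genes and markers come from the fit without the replicate block. Of 14 genes of collagen folding, secretion and cross-linking that were tested, 4 were lower in adult than in P10 stroma and 0 higher, and 11 were higher and 0 lower in keratocyte cultures than in adult stroma. Lox, which cross-links collagen, averaged 37.8 in adult stroma and 222.2 in P10 stroma, and 2796 in keratocyte cultures (log2 differences -2.23 and 5.80). Serpinh1 averaged 499.6 in adult stroma and 1527 in P10 stroma, and 3064 in keratocyte cultures (-1.65 and 2.65). P4ha1, a prolyl hydroxylase subunit, and Loxl1, a relative of Lox, were higher in keratocyte cultures than in adult stroma (3.12 and 3.06). Sparc was lower in adult than in P10 stroma (-0.89), as was P3h3, which lay within background in both. The adult means of Lox, P4ha1 and Loxl1 were within background, so the sizes of these differences depend on the added constant. In fibroblast against keratocyte culture 0 of the 14 were called in limma (0 at an unadjusted p under 0.05), and in myofibroblast against fibroblast culture 0 of the 14 (0 unadjusted). All log2 differences in this paragraph are from limma.

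Of 12 fibril-associated and other non-fibrillar collagens tested, 6 were lower in adult than in P10 stroma and 6 higher in keratocyte cultures than in adult stroma, with 0 in the other direction in each. Col8a1, known from Descemet's membrane, averaged 86.4 in adult stroma and 580.1 in P10 stroma, and 1871 in keratocyte cultures (log2 differences -2.55 and 4.21). Col14a1 was lower in adult than in P10 stroma (-2.45), Col18a1 higher in keratocyte cultures than in adult stroma (2.28), and Col15a1 and Col6a3 were lower in adult than in P10 stroma (-2.20 and -1.93) and higher in keratocyte cultures than in adult stroma (2.17 and 2.20). In fibroblast against keratocyte cultures Col8a1 was higher (0.93), and Col18a1 and Col15a1 were lower (-1.48 and -1.40). The adult means of Col8a1, Col14a1, Col15a1 and Col18a1 were within background, as was Col15a1 in fibroblast cultures, so these sizes depend on the added constant. In myofibroblast against fibroblast cultures 0 of 12 were called in limma (3 at an unadjusted p under 0.05).

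Of 7 fibril-binding proteoglycans tested, 2 were lower in adult than in P10 stroma, Fmod (-1.53) and Bgn (-1.27). In keratocyte cultures against adult stroma 4 were higher and 0 lower: Fmod (3.41), Bgn (2.55), Ogn (2.54) and Dcn (0.60). Of 5 collagen receptors, Ddr2 was lower in adult than in P10 stroma (-2.27). In keratocyte cultures against adult stroma Itgb1 (1.53) and Ddr2 (1.37) were higher and Ddr1, a receptor also of epithelium, was lower (-1.01). Of 8 genes of collagen degradation, Ctsk was lower in adult than in P10 stroma (-1.37), and Ctsb (1.68), Ctsk (1.16) and Mmp14 (0.77) were higher in keratocyte cultures than in adult stroma, as was Mmp13, whose group means were both within background. Of the 20 genes of these 3 lists, limma called 0 in fibroblast against keratocyte culture and 0 in myofibroblast against fibroblast culture (2 and 5 at an unadjusted p under 0.05).

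Of the other fibrillar chains, Col2a1 and Col11a2 were tested. Col11a2, a partner of Col11a1 in type XI collagen, went the other way: it averaged 381.3 in keratocyte cultures and 824.1 in adult stroma (log2 difference -1.08, SE 0.18, limma adjusted p = 0.000368). It averaged 824.1 in adult stroma and 693.8 in P10 stroma (0.24, adjusted p = 0.671). Col2a1 of cartilage averaged 68.1 in adult stroma and 59.7 in P10 stroma, both within background.

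Markers of cell types differed in some of the same comparisons. The shares of all probe sets called are the background of their counts. In adult against P10 stroma 3.26% of all were lower and 0.453% higher. In keratocyte culture against adult stroma 21.8% were higher and 9.25% lower, and in fibroblast against keratocyte culture 1.18% were lower. Of 8 keratocyte markers, 0 were called between adult and P10 stroma (sums of 17098 to 18273 and 20435 to 21173). In keratocyte cultures (sums of 8326 to 18016) 4 of them were higher and 1 lower than in adult stroma. Of 7 myofibroblast markers, 4 were lower and 1 higher in adult than in P10 stroma, and 5 were higher and 1 lower in keratocyte cultures (sums of 13884 to 14964) than in adult stroma (1457 to 2491). The summed signal of corneal epithelium markers was 25553 to 30262 in adult stroma and 28288 to 28641 in P10 stroma, and of the 15 markers tested 1 was higher and 3 lower in adult stroma. In all 9 cultures it was 753.5 to 1037. The 5 pigment cell markers summed to 867.4 to 1068 in adult stroma and 1871 to 5201 in P10 stroma, with 3 of 5 lower in adult stroma. Lens markers summed to 4924 to 7754 in adult stroma and 5565 to 9845 in P10 stroma, with 0 of 7 called, against 636.2 to 983.0 in cultures. Macrophage markers summed to 3158 to 4013 in keratocyte cultures and 984.5 to 1382 in adult stroma, with 8 of 12 higher. In the same comparison 4 of 5 pigment cell markers were higher and 8 of 11 retina markers lower. In fibroblast against keratocyte culture, where Col3a1 was called lower, 4 of 5 pigment cell markers (sums of 661.6 to 958.3 and 2184 to 2509) and 5 of 12 macrophage markers (1539 to 2938 and 3158 to 4013) were lower. The part of these cells in the collagen differences was not tested. Adult replicate 1 had a Gapdh 3′/5′ ratio of 2.12, against 1.04 or less on the other 13 arrays, and without it 9 probe sets were called in adult against P10 stroma and 9 in keratocyte culture against adult stroma. The ratio also split tissue from culture. It was 0.896 or more on every tissue array and 0.859 or less on every culture array. For Actb the 3′/5′ ratio was 1.44 or more in tissue and 1.20 or less in culture. The part of this difference in the ratios between chains was not tested.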

How the data were processed

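The deposited values are probe set intensities on a linear scale in 1 table of 12488 probe sets by 14 arrays. Per the labels' protocols, 5 µg of total RNA isolated with TRIzol was labelled for each array, and the authors made the signals with Microarray Suite 5.0, scaled to a target intensity of 150. Means trimmed by 2% at each end ran between 164.3 and 224.7 over the deposited arrays, so how that scaling was done is not settled. The table gives no detection calls. No 2 columns were identical.

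After 66 control probe sets were removed, those with a mean signal of 50 or more in at least 1 group were kept (10370). A linear model of log2(signal + 16) had a mean for each of the 5 groups, took in all 14 arrays (9 residual degrees of freedom) and used a variance trend (limma 3.58.1, R 4.3.3). Tests were two-sided, with Benjamini-Hochberg adjustment over the kept probe sets and a threshold of 0.05. The fit was tested on simulated data. A chain's ratios used its probe set of highest mean log2 signal, and were tested with an exact permutation test in SciPy 1.17.1. A fold is on the scale of signal + 16 and understates changes of dim probe sets. A bound ("at least") sets the brighter group's mean against 137.7, the 95th percentile of 19 control probe sets for transcripts taken as absent (median 42.19). It leaves out the spread between arrays. Gene symbols came from the platform annotation, which can be old and gave 1 symbol to 10833 probe sets, several to 396 and none to 1193. Precision is set by how many arrays each group has.

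Named genes were all probe sets of the 6 chains, the 3 nearest genes to each chain by RMS difference, and up to 4 members of each list with the largest differences among those called in a step. The members, lists and tests were chosen with earlier results of these data known. Replicate numbers were taken to pair arrays where groups shared 3 numbers and every same-numbered pair of deviations correlated above 0.1, which held only for myofibroblast and fibroblast cultures. Comparisons with the 2 P10 arrays have too few pairs for this rule. As alternatives, the added constant was 1 or 64, the filter was dropped or set at 100, and the rest were quantile normalization, median centring, rescaling of trimmed means to 150, a fit of only the groups compared, the replicate block, no variance trend, array quality weights, the Gapdh 3′/5′ ratio as a covariate, other probe sets in the ratios, and leaving out each array. Raising signals under 137.7 to that level in the ratios was added after the data were seen.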

Additional observations from a re-analysis of the deposited data

Results flagged for a closer look

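Among the 9 culture arrays, fibroblast culture replicate 3 was far from the others in the log2 ratio of Col3a1 to Col1a1, at -5.80, where the other 8 lay between -3.48 and -1.93. Col3a1 was within background on that array. The limit used is Dixon's 95% critical value, which chance passes in about 1 of 20 groups, and 12 groups of ratios were checked. The part of this array's other differences (Tagln, Acta2, Aldh3a1 and other markers are given above) was not tested.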

How the results depend on the processing

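The counts of called probe sets in adult against P10 stroma and in keratocyte, fibroblast and myofibroblast culture against adult stroma stayed within 1.5 times under every alternative run. The counts between cultures, and against the 2 P10 arrays, did not. The share of all probe sets called either way moved too. In fibroblast against keratocyte culture it was 1.37% in the main fit, 0.8% with a constant of 1 and 0.569% without fibroblast replicate 3. In myofibroblast against fibroblast culture it was 1.07% in the main fit, 0.877% with no filter and 2.44% with the replicate block. Shares under other settings are not given here, so the counts are not read as changes of the collagens alone. For fibroblast against keratocyte culture (2 called) the count was 0 with an added constant of 1 and with only the 2 groups in the fit, 1 with no filter, quantile normalization, median centring or the Gapdh covariate, 4 with array weights, and 0 to 2 with arrays left out. For myofibroblast against fibroblast culture (1 called) it was 0 with a constant of 1, no filter or only the 2 groups, 3 with a constant of 64, median centring or array weights, 4 with quantile normalization, rescaled trimmed means or the replicate block, and 0 to 2 with arrays left out. For myofibroblast against keratocyte culture (1 called) it was 3 with quantile normalization, 4 with median centring, 6 with rescaled trimmed means or array weights, 2 with only the 2 groups, and 0 to 1 with arrays left out. For keratocyte culture against P10 stroma (2 called) it was 1 with no filter, median centring or no variance trend, 0 with the replicate block, and 0 to 1 with arrays left out. For fibroblast culture against P10 stroma (3 called) it was 0 with only the 2 groups and 0 to 3 with arrays left out. For myofibroblast culture against P10 stroma (4 called) it was 1 with the replicate block and 0 to 4 with arrays left out.

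Col1a1 103709_at, at 0.07 in myofibroblast culture against adult stroma, turned to -0.55 with array weights (limma, adjusted p = 0.0189). The Col1a2/Col1a1 ratio turned to -0.83 with Col1a2 read by 161156_r_at, and Col5a2/Col5a1 to 0.63 with Col5a1 read by 93472_at. The cause was not tested. Where the replicate block is not named above, it changed no count by more than 1.5 times. The Col11a1/Col1a1 ratio fell to 0.49 (exact adjusted p = 0.246) with signals under the background level raised to it, a setting added after the data were seen, since Col11a1 was within background in adult stroma. Signals within background gave only bounds in adult stroma for Col3a1 and Col11a1, and in fibroblast cultures for 161984_f_at and 102990_at of Col3a1. Between fibroblast cultures and adult stroma both means of 161984_f_at and of 102990_at were within background, so not even a bound stands there.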
